A study of Mus musculus with 8 samples.

Results

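Skeletal muscle wastes through a small set of genes that raise protein breakdown. The 10 genes described here were the ubiquitin ligase components Fbxo32, Trim63, Fbxo30 and Fbxo21, the forkhead transcription factors Foxo1 and Foxo3, and Klf15, Ddit4, Fkbp5 and Cebpd, which respond to glucocorticoids. They were chosen by name, as 10 of the 21111 gene symbols used, and their raw unique molecular identifier (UMI) counts were read in all 8 single-nucleus RNA-seq libraries. The nuclei came from gastrocnemius muscle of wild-type C57BL/6 mice in 4 groups with 2 libraries each. Old mice were 20 months of age and Young mice 3 months. Running mice were 11 months of age at the start and ran on a treadmill at 9 m/min in sessions of 30 min for 2 months, and Sedentary mice of the same starting age did not. Replicate 1 of each group was a 10x Genomics library and replicate 2 belonged to a second library set made on another droplet system, so that each set held 1 library of every group. How many animals stand behind a library, whether tissue was pooled and the sex of the mice are not given in the sources used here, so p-values measure the spread between these libraries only.

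In growing or fed muscle, insulin-like growth factor signalling through AKT keeps FoxO proteins out of the nucleus. When that signal falls, or when glucocorticoids activate the glucocorticoid receptor, FoxO proteins, KLF15 and C/EBP factors turn on ligases that mark muscle proteins for the proteasome. Fasting, denervation, disuse and glucocorticoid excess are the classical settings in which this programme is known to run.

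Filters on nuclei left 64803 of 65280 deposited nuclei. The 10x libraries held 10587 to 12991 nuclei, totals of 23390969 to 44454427 UMIs and medians of 1664 to 3001 UMIs per nucleus, and the second set held 4228 to 4772 nuclei, totals of 4839878 to 9278034 UMIs and medians of 909 to 1689.5 UMIs. Each 10x library shared 100 to 124 cell barcodes with another 10x library. Nuclei were clustered within each library set without the 10 genes and named only as far as listed markers went, so every class name below means nuclei of a cluster that resembled that type. Myofibre clusters were those named type IIb, type IIa/IIx, slow, Runx1-positive, neuromuscular junction, myotendinous junction or myofibre of no named fibre type. Each also needed the sarcomere gene Ttn at 33% or more of its highest cluster level in the set. They held 903 to 8279 nuclei of a library. In Old replicate 2, 3632 of 4772 nuclei stayed in unnamed clusters and 389 were called type IIb. Sedentary replicate 1 was the shallowest 10x library and had 1298 unnamed nuclei and 1020 myofibre nuclei of no named fibre type. Levels are given in CPM, the gene's UMIs over all UMIs of the same nuclei in the usual scaling, and are compared within a gene only, since they were not corrected for gene length. In sums over all nuclei, fewer nuclei of a type and less RNA per nucleus cannot be told apart.

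Promoters were read from RefSeq (GRCm38.p6) for 8 of the 10 genes, from 250 bases before to 50 bases after the annotated start, and searched on both strands. The FoxO site GTAAACA lay in 1 of the 8, that of Trim63, on the opposite strand 194 bases before the start, against 3.65% of 32851 promoters. The shorter core AAACA, which lies within GTAAACA, was found in 2 (Trim63 and Foxo1), against 50.5% of promoters. The glucocorticoid half-site AGAACA was found in 1, again Trim63, on the opposite strand 200 bases before the start, against 19.0% of promoters. The whole glucocorticoid element was found in 0 of the 8, against 3 of 32851 promoters. The E-box CACGTG, the binding sequence of the clock factors, was found in 2, 228, 172 and 3 bases before the start of Klf15 and 169 bases before that of Fkbp5, against 7.15% of promoters. Fbxo32 and Cebpd had no entry. The 250 bases before the start are shown for Trim63 (chr4:134314870-134315119, plus strand), which carried the FoxO site and differed between nuclear classes as described below, with the half-site and the FoxO site side by side in capitals, and for Klf15 (chr6:90462326-90462575, plus strand) and Fkbp5 (chr17:28486150-28486399, minus strand), which shared the E-box, in capitals, and differed in opposite directions between myofibre and other nuclei. The Klf15 E-box 3 bases before the start runs across the start, so it is cut off in the bases shown and not in capitals. The RefSeq start used for Fkbp5 lies inside the longer span given for the gene below. A match of letters is a description and not a bound site.
Trim63: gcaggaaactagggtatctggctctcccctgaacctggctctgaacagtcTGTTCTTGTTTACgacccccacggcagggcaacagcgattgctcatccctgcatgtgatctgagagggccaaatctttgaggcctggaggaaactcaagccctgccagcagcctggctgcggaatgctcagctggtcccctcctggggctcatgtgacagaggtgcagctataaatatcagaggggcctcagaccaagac
Klf15: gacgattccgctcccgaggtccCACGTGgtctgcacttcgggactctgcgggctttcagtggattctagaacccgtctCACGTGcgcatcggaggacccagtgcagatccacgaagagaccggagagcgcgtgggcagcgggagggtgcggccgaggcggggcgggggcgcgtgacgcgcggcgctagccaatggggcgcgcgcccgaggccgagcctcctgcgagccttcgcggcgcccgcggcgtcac
Fkbp5: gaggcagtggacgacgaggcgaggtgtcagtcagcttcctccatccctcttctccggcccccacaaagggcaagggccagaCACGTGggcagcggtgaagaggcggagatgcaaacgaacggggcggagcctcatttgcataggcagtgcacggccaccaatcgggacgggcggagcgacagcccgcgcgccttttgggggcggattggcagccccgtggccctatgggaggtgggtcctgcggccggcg

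The ligases most used as atrophy markers were highest in myofibre nuclei. Fbxo32 (chr15:58175879-58214932, minus strand, in GRCm38 as for all genes here), which encodes atrogin-1, the substrate-binding subunit of a cullin-RING ligase, was at 1020 ± 412 CPM (mean ± SD over 4 10x libraries) in type IIb nuclei. It was next at 785 CPM in neuromuscular junction, 559 CPM in type IIa/IIx and 518 CPM in myotendinous junction nuclei, and lowest at 146 CPM in adipocytes. Every pair of neighbours in this order overlapped between libraries. Trim63 (chr4:134315120-134329629, plus strand), which encodes the RING ligase MuRF1 of the sarcomere, was at 566 CPM in neuromuscular junction, 507 CPM in type IIb, 465 CPM in myotendinous junction and 316 CPM in type IIa/IIx nuclei. Neighbours among these 4 classes overlapped, and the type IIa/IIx libraries lay wholly above the next class, endothelial nuclei at 152 CPM.

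The other ligase components had a different order. Fbxo30 (chr10:11281330-11298052, plus strand), which encodes the F-box protein MUSA1 of denervated muscle, ranged from 40.1 CPM in lymphatic endothelial to 18.9 CPM in type IIb nuclei with overlap between all neighbours. Fbxo21 (chr5:117976730-118010201, plus strand), which encodes an F-box protein also called SMART, was at 85.6 ± 53.2 CPM in adipocytes, above every library of the next class, fibro-adipogenic progenitors at 22.5 CPM. It was lowest at 4.96 CPM in type IIb nuclei.

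Neither FoxO gene was highest in myofibres. Foxo1 (chr3:52268336-52353221, plus strand) was at 674 ± 78.0 CPM in muscle stem cells, 549 CPM in lymphatic endothelial and 475 CPM in adipocyte nuclei, and its lowest class was type IIb at 144 CPM. Fibro-adipogenic progenitors at 234 CPM lay above macrophages at 166 CPM in every library, and all other neighbours overlapped. Foxo3 (chr10:42181841-42276755, minus strand) was at 296 CPM in muscle stem cells and 293 CPM in macrophages and also lowest in type IIb nuclei, at 111 CPM.

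Among the glucocorticoid-responsive genes, Klf15 (chr6:90462576-90475238, plus strand), a zinc finger factor that drives amino acid and lipid use, was at 53.9 CPM in adipocytes, 46.2 CPM in type IIa/IIx and 44.7 CPM in type IIb nuclei and lowest at 6.47 CPM in macrophages. Fkbp5 (chr17:28399094-28517527, minus strand), which encodes a co-chaperone that lowers the hormone affinity of the glucocorticoid receptor, was at 301 CPM in fibro-adipogenic progenitors, 291 CPM in T cells and 249 CPM in macrophages. Its lowest class was again type IIb, at 21.3 CPM. Ddit4 (chr10:59949669-59951834, minus strand), which encodes the mTOR inhibitor REDD1, was at 26.6 CPM in lymphatic endothelial nuclei, on 26 UMIs, and 12.5 CPM in endothelial nuclei. Cebpd (chr16:15887286-15891031, plus strand), which encodes the leucine zipper factor C/EBPδ, ranged from 40.9 CPM in lymphatic endothelial to 4.13 CPM in myotendinous junction nuclei.

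**Figure D1:**
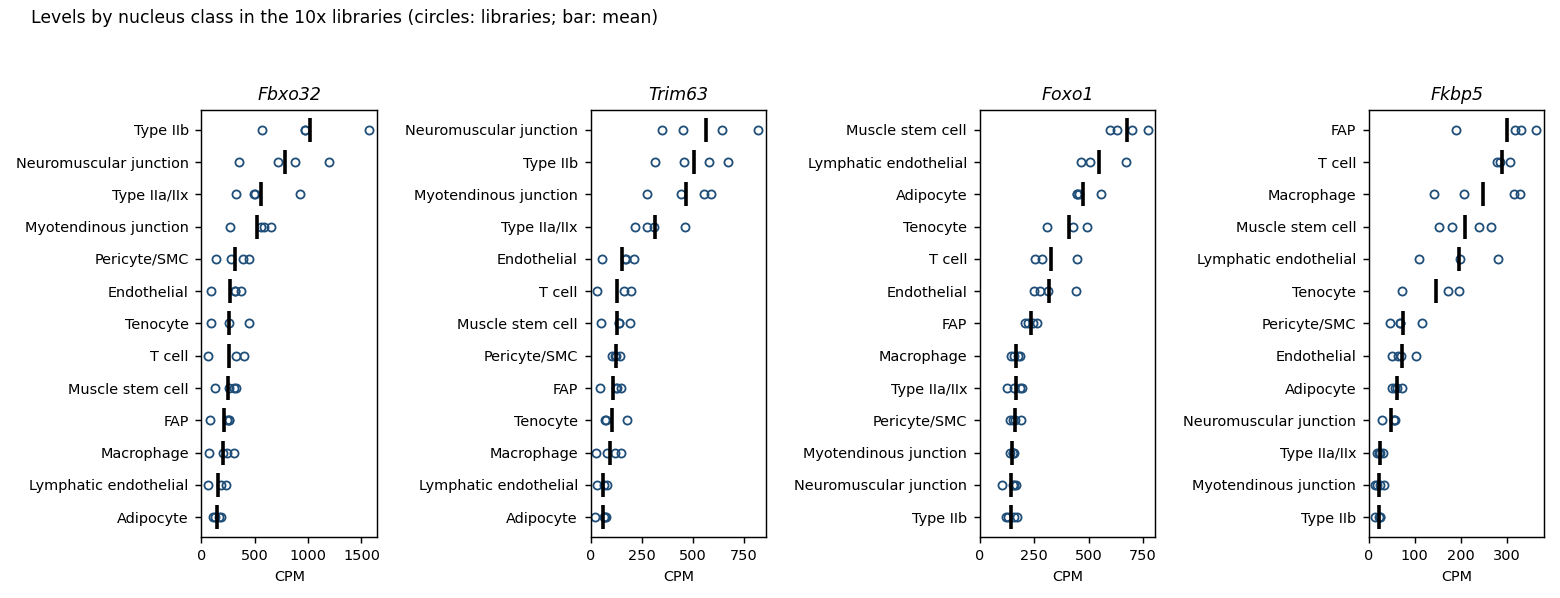
Levels of Fbxo32, Trim63, Foxo1 and Fkbp5 (CPM) in 13 nuclear classes of the 10x libraries, with a circle per library and a bar at the mean. Fbxo32 and Trim63 are highest in the myofibre classes, Foxo1 in muscle stem cells at 674 CPM and Fkbp5 in fibro-adipogenic progenitors at 301 CPM.

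To test these contrasts over libraries, UMIs were summed over all myofibre nuclei, slow, junction and fibre nuclei of no named type included, and over all other named nuclei of each library and compared within libraries with edgeR's quasi-likelihood test, with Benjamini-Hochberg adjustment over all genes. Of the 10 genes 7 differed, 3 higher and 4 lower in myofibre nuclei, against a background of 59.9% of the 15017 genes tested (32.2% higher and 27.7% lower). With library totals in place of TMM scaling 8 were called, against a background of 57.4% (12.9% higher and 44.6% lower), and the median of all genes moved from 0.13 to -0.44 on the log2 scale. Small differences between these classes therefore depend on the scaling, and each gene that changed its call or direction is named below.

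Fbxo32 was at 1270, 544, 941 and 759 CPM in the myofibre nuclei of Old, Young, Running and Sedentary replicate 1, and at 274, 92.2, 237 and 238 CPM in their other nuclei. In replicate 2 of the same groups it was at 397, 605, 388 and 340 CPM in myofibre nuclei and at 200, 466, 342 and 120 CPM in other nuclei. It was higher in myofibre nuclei in 8 of 8 libraries, by 1.97 on the log2 scale (SE 0.34, adjusted p = 0.000493). Trim63 was at 580, 309, 553 and 374 CPM in myofibre nuclei of the 10x libraries against 127, 47.8, 135 and 116 CPM in other nuclei, and at 1092, 927, 914 and 758 CPM against 576, 610, 626 and 581 CPM in the second set. It was also higher in 8 of 8 libraries, by 1.89 (SE 0.34, adjusted p = 0.000637). The difference was smaller in the second set for both genes. Other nuclei numbered 237, 173, 181 and 142 in Old, Young, Running and Sedentary there, against 5713, 4054, 4246 and 2147 in the 10x set. In Old replicate 2, 208 of them were adipocytes and 3 fibro-adipogenic progenitors, where Old replicate 1 held 364 and 3429. The sets thus compare myofibres with unlike mixtures, and the part of this in the difference was not tested. Fitted alone, the 10x libraries gave 2.74 for Fbxo32 and 2.78 for Trim63, and the second set 0.80 and 0.74, each of them called. These fits include TMM scaling. Without it, log2 CPM differences of single 10x libraries were 1.67 to 2.56 for Fbxo32 and 1.69 to 2.69 for Trim63. Those of the second set were 0.175 to 1.46 and 0.38 to 0.92. Of all genes, 70.1% were called in the 10x set (34.1% higher and 36.1% lower) and 18.5% in the second (6.74% higher and 11.8% lower).

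Free RNA itself was not measured, so levels outside myofibres were set beside those of muscle-restricted genes. The level outside myofibres was 23.4% of that inside for Fbxo32 and 23.2% for Trim63 (medians over the 10x libraries), where 9 muscle-restricted genes gave medians of 18.1% to 51.2%. In the second set it was 63.7% and 67.1%, where the same 9 genes gave 59.9% to 98.2%. Both genes thus lay within the range of these 9 genes. Of the 9, Ttn and Myh4 had also been used to name clusters, so their ratios were not independent of the classes. Ttn gave the 18.1% of the 10x set, where the lowest of the others was Ryr1 at 19.1%. Free RNA, doublets and misnamed nuclei cannot be told apart by these ratios. With each nucleus thinned to 500 UMIs, 34.6% ± 11.96 (SD, 4 10x libraries) of type IIb nuclei held an Fbxo32 UMI and 21.0% ± 5.74 a Trim63 UMI, against 8.41% ± 2.84 and 6.14% ± 4.35 of endothelial nuclei. Without thinning, at median depths of 2243 to 3689 UMIs in type IIb and 962.5 to 1854.5 UMIs in endothelial nuclei, the shares were 75.1% and 66.3% against 21.8% and 15.4%.

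Klf15 was the third gene higher in myofibre nuclei, by 1.09 (SE 0.26, adjusted p = 0.00331). In the 10x libraries it was at 49.96, 36.9, 58.9 and 33.8 CPM in myofibre nuclei of Old, Young, Running and Sedentary against 25.8, 19.8, 38.7 and 23.7 CPM in other nuclei. Levels of 15.4, 26.9, 34.7 and 46.0 CPM in the second set stood against 30.7, 35.9, 16.3 and 26.7 CPM, so that it was higher in 6 of 8 libraries. The call was lost with library totals in place of TMM (0.50, adjusted p = 0.072) and in the second set alone (0.21, adjusted p = 0.777), where other nuclei of a library summed to only 149639 to 334635 UMIs.

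Fkbp5, Fbxo21, Ddit4 and Cebpd were lower in myofibre nuclei over the 8 libraries. In the second set alone Fkbp5 stayed called (-1.02, adjusted p = 0.00411), and Fbxo21 and Ddit4 did not pass the filter on low counts and were not tested. Fkbp5 was at 23.3, 14.3, 28.7 and 26.6 CPM in myofibre nuclei of the 10x libraries against 287, 149, 236 and 178 CPM in other nuclei, with no overlap. Its second-set levels were 116, 73.7, 42.1 and 113 CPM against 134, 158, 137 and 321 CPM. It was lower in 8 of 8 libraries, with a log2 difference of -1.72 (SE 0.30, adjusted p = 0.00055). At 500 UMIs per nucleus, 13.8% ± 3.30 of fibro-adipogenic progenitors and 1.17% ± 0.214 of type IIb nuclei of the 10x libraries held an Fkbp5 UMI (38.6% and 6.48% without thinning, at median depths of 1147.5 to 2661 and 2243 to 3689 UMIs).

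Fbxo21 was at 6.86, 3.55, 6.75 and 11.3 CPM in myofibre nuclei of the 10x libraries against 34.9, 21.4, 26.6 and 51.8 CPM, and at 8.20, 9.27, 12.9 and 12.9 CPM in the second set against 46.1, 14.9, 26.1 and 26.7 CPM. Its groups did not overlap, and it was lower in 8 of 8 libraries with a log2 difference of -1.37 (SE 0.21, adjusted p = 0.000244). In other nuclei of Old replicate 2, 11 of its 12 UMIs came from adipocytes, its highest class. Ddit4, at 0.45 to 1.34 CPM in myofibre nuclei of the 10x libraries against 2.57 to 8.67 CPM in other nuclei, was lower in 8 of 8 libraries (-1.92, SE 0.29, adjusted p = 0.000219). Its second-set levels were 5.13, 5.76, 2.37 and 2.90 CPM against 19.2, 62.8, 9.79 and 6.68 CPM. Those of other nuclei rested on only 5, 21, 3 and 1 UMIs in Old, Young, Running and Sedentary. Cebpd was lower in 6 of 8 libraries (-0.72, SE 0.26, adjusted p = 0.0325). The Cebpd call was lost without Old, Young, Running or Sedentary replicate 1 or Sedentary replicate 2 (-0.59, -0.65, -0.72, -0.63 and -0.64) with no filter on low counts (-0.54) and in the second set alone (-0.11, adjusted p = 0.919).

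Fbxo30 (0.27, adjusted p = 0.278), Foxo1 (-0.14, adjusted p = 0.42) and Foxo3 (-0.04, adjusted p = 0.817) were not called between these classes. With library totals only, Foxo1 (-0.66, adjusted p = 0.01) and Foxo3 (-0.58, adjusted p = 0.00924) were called lower in myofibre nuclei, and Fbxo30 turned to -0.28. In the 10x libraries Foxo1 was at 128, 128.5, 173 and 171 CPM in myofibre nuclei against 271, 324, 303 and 351 CPM in other nuclei, with no overlap, and the fit of those libraries alone called it (-0.44, adjusted p = 0.0101). The second set gave 189, 124, 71.6 and 138 CPM against 169, 108, 101 and 207 CPM, and the values overlapped.

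**Figure D2:**
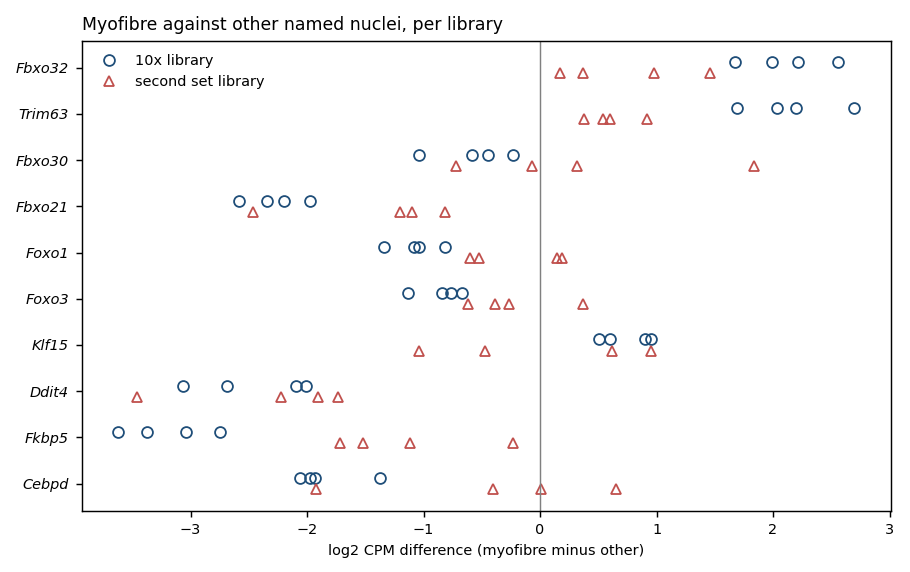
Difference in log2 CPM between myofibre and other named nuclei of each library for the 10 genes, with 0.5 UMI added to each count. Circles are 10x libraries and triangles the second set. All 8 libraries lie above 0 for Fbxo32 and Trim63 and below 0 for Fkbp5, Fbxo21 and Ddit4. Ddit4 had 1 to 21 UMIs in other nuclei of the second set.

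Genes linked to the same pathways were counted beside the members, against 32.2% of all genes higher and 27.7% lower (12.9% and 44.6% with library totals). Of 20 other atrophy-linked ligases and partners, 15 were higher and 0 lower in myofibre nuclei, among them Trim55 (2.10), Trim54 (2.06) and Fbxo40 (2.03), sarcomere-associated or muscle-specific relatives of the members. With library totals the count was 4 higher and 2 lower. Of 22 other FoxO-linked genes, 10 were higher and 1 lower (4 and 6 with library totals), led by Pdk4 (1.80), which encodes a kinase that blocks glucose oxidation. Of 20 other glucocorticoid-responsive genes, 10 were higher and 5 lower (6 and 8 with library totals), and those with the smallest p-values were lower: the lipase inhibitor Angptl4 (-2.995) and the metallothioneins Mt1 (-2.40) and Mt2 (-2.37). Of 18 receptors and signalling genes, 5 were higher and 5 lower (3 and 8 with library totals), with Igf1 at -3.81, the cortisol-regenerating enzyme Hsd11b1 at -3.31 and the mineralocorticoid receptor Nr3c2 at 0.98. Of 10 KLF15-linked metabolic genes, 7 were higher and 1 lower (6 and 3 with library totals), and of 4 other C/EBP genes 1, Cebpa (-2.96), was lower under both scalings.

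Between fast fibre types the members differed less. Type IIb fibres are the fastest and most glycolytic fibres of the mouse, and type IIa and IIx fibres are more oxidative. The same test within libraries called 2 of the 9 members tested, against 31.5% of 12142 genes (15.5% higher and 16% lower in type IIb nuclei). With library totals in place of TMM 4 of 9 were called, against 31.1% of genes (11.9% higher and 19.2% lower). Ddit4 was not tested here: type IIa/IIx nuclei held 0 to 15 of its UMIs in a library. In the second set the type IIa/IIx cluster held Myh4, the type IIb heavy chain gene, at 7548 CPM. Its Myh1 and Myh2, the genes of types IIx and IIa, were at 2778 and 4109 CPM. The 10x clusters of this name held Myh4 at 2012 and 514, Myh1 at 3391 and 1681 and Myh2 at 310 and 4730 CPM. Second-set values below thus compare type IIb nuclei with a class in which Myh4 was above Myh1 and Myh2.

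Trim63 was at 672, 318, 578 and 460 CPM in type IIb nuclei of Old, Young, Running and Sedentary replicate 1 against 308, 217, 462 and 276 CPM in type IIa/IIx nuclei. In replicate 2 it was at 1198, 1207, 937 and 701 CPM against 1224, 808, 713 and 767 CPM. It was higher in type IIb nuclei in 6 of 8 libraries, the exceptions being Old and Sedentary replicate 2, by 0.53 on the log2 scale (SE 0.11, adjusted p = 0.00195). Fbxo21 went the other way. It was at 5.12, 2.996, 4.65 and 7.07 CPM in type IIb nuclei of the 10x libraries against 10.6, 9.38, 11.5 and 17.4 CPM, and at 5.24, 6.61, 13.1 and 13.7 CPM in the second set against 4.86, 11.8, 10.5 and 15.05 CPM. By CPM it was lower in type IIb nuclei in 6 of 8 libraries, the exceptions being Old and Running replicate 2, and the fit gave -0.91 (SE 0.19, adjusted p = 0.00146). In the second set alone neither was called (Trim63 0.26, adjusted p = 0.0811, and Fbxo21 -0.23, adjusted p = 0.759), where 15% of all genes were.

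Fbxo32 was not called over the 8 libraries (0.38, SE 0.21, adjusted p = 0.19), and its direction differed between the library sets. In the 10x libraries it was at 1570, 570, 967 and 974 CPM in type IIb nuclei against 488, 323, 920 and 505 CPM in type IIa/IIx nuclei, higher in each. In the second set it was at 427, 662, 373 and 301 CPM against 462, 680, 520 and 465 CPM, lower in each. Fitted alone, the 10x libraries gave 0.95 (SE 0.21, adjusted p = 0.00828), where 31.2% of all genes were called (14.9% higher and 16.2% lower), and the second set -0.29 (SE 0.10, adjusted p = 0.0427), where 6.36% were called higher and 8.59% lower. The difference between the sets was itself not tested. Library system, depth, free RNA and the Myh4 level of the type IIa/IIx class cannot be told apart between them. Fbxo32 was also called with no filter on low counts (0.52).

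The other ligase, Fbxo30, was at 17.9 to 34.1 CPM in type IIb and 19.96 to 35.1 CPM in type IIa/IIx nuclei (-0.33, SE 0.12, adjusted p = 0.0533). Foxo1 gave -0.17 (SE 0.09, adjusted p = 0.163). Both were called lower in type IIb nuclei with library totals only (Fbxo30 -0.40, adjusted p = 0.0186, and Foxo1 -0.24, adjusted p = 0.0343). Foxo3, Klf15, Fkbp5 and Cebpd were at -0.09, -0.12, 0.13 and 0.32 with adjusted p-values of 0.538, 0.445, 0.407 and 0.143. None of the glucocorticoid-responsive members tested between fibre types, Klf15, Fkbp5 and Cebpd, thus passed.

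**Figure D3:**
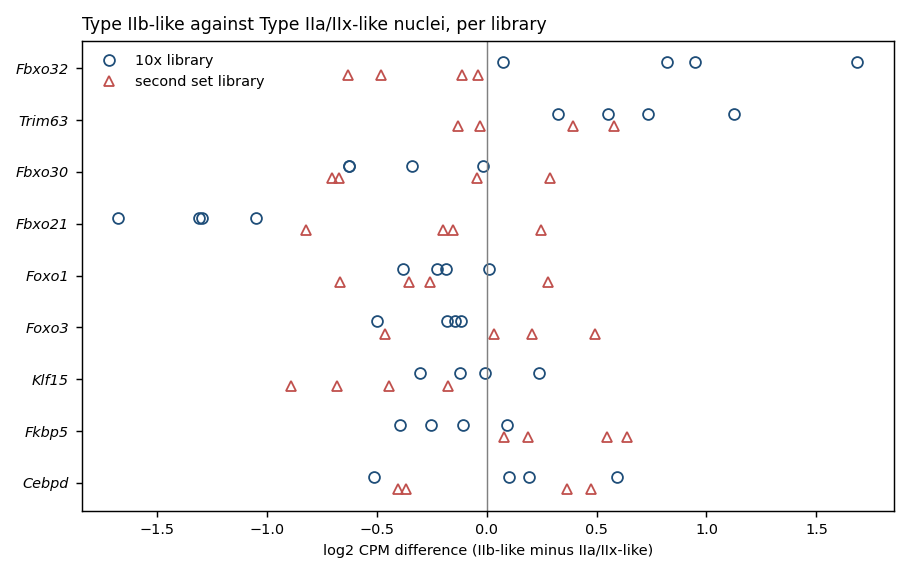
Difference in log2 CPM between type IIb and type IIa/IIx nuclei of each library for the members, with 0.5 UMI added to each count. Circles are 10x libraries and triangles the second set. For Fbxo32 the 4 10x libraries lie above 0 and the 4 second libraries below it.

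Linked genes were read against 15.5% of all genes higher and 16% lower in type IIb nuclei (11.9% and 19.2% with library totals). Among them, 6 of 19 other ligases and partners were higher and 1 lower in type IIb nuclei (6 and 2 with library totals), led by Mib1 (0.50, adjusted p = 2.48e-05) and Asb2 (0.74, adjusted p = 3.37e-05), with Ubr2 (-0.41) lower. Of 22 other FoxO-linked genes 0 were higher and 5 lower (0 and 7 with library totals), among them Pdk4 (-1.39), catalase, Cat (-1.21), and the autophagy gene Gabarapl1 (-0.65). Of 10 KLF15-linked genes 0 were higher and 6 lower (0 and 7 with library totals), with the lipoprotein lipase Lpl at -2.65, the aspartate aminotransferase Got1 at -1.44 and the fatty acid activating enzyme Acsl1 at -1.03. Pdk4 stood in both lists. Of 17 glucocorticoid-responsive genes 8 were higher and 4 lower (5 and 6 with library totals), with myostatin, Mstn, at 1.73, the polyamine enzyme Amd1 at 0.83 and the PI3-kinase subunit Pik3r1 at -0.99. Of 18 receptors and signalling genes 2 were higher and 2 lower (1 and 3 with library totals). The glucocorticoid receptor, Nr3c1, was at 0.57, the mineralocorticoid receptor, Nr3c2, at -0.41 and Mtor at -0.34. Of 3 other C/EBP genes Cebpz (0.35) was higher and Cebpg (-0.46) lower under both scalings. The medians of these lists were 0.10, -0.08, -0.67, 0.27, 0.07 and -0.11 in the order given, against 0.02 over all genes tested and -0.09 over the members.

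The highest Trim63 levels were found in a small cluster of the second library set whose leading genes included Runx1 and Gadd45a, genes that denervated fibres are known to switch on. It held 34, 41, 27 and 96 nuclei of Old, Young, Running and Sedentary replicate 2, and was singled out after its values were seen, so its values carry no test. Trim63 was at 2384, 2977, 2928 and 2697 CPM in it (93, 289, 150 and 319 UMIs) against 1038, 902, 899 and 706 CPM in the other myofibre nuclei of the same libraries. Foxo1 was at 436, 288, 351 and 583 CPM against 178, 123, 69.4 and 126 CPM. Both were higher in 4 of 4 libraries with no overlap. Fbxo30 was also higher in each, at 103, 92.7, 58.6 and 67.6 CPM against 31.0, 23.3, 22.4 and 28.0 CPM, but on 4, 9, 3 and 8 UMIs. Fbxo32 was at 436, 402, 566 and 1057 CPM against 395, 607, 387 and 321 CPM, higher in 3 of 4. Fkbp5 was lower in each, at 25.6, 51.5, 19.5 and 59.2 CPM against 119.6, 73.9, 42.2 and 114.6 CPM, on 1, 5, 1 and 7 UMIs. Foxo3 (2 to 8 UMIs) was at 103, 72.1, 39.0 and 67.6 CPM against 59.8, 46.5, 36.4 and 40.6 CPM. Klf15, Fbxo21, Ddit4 and Cebpd had 0 to 6, 0 to 1, 0 to 1 and 0 to 1 UMIs in the cluster, too few to place them.

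**Figure D4:**
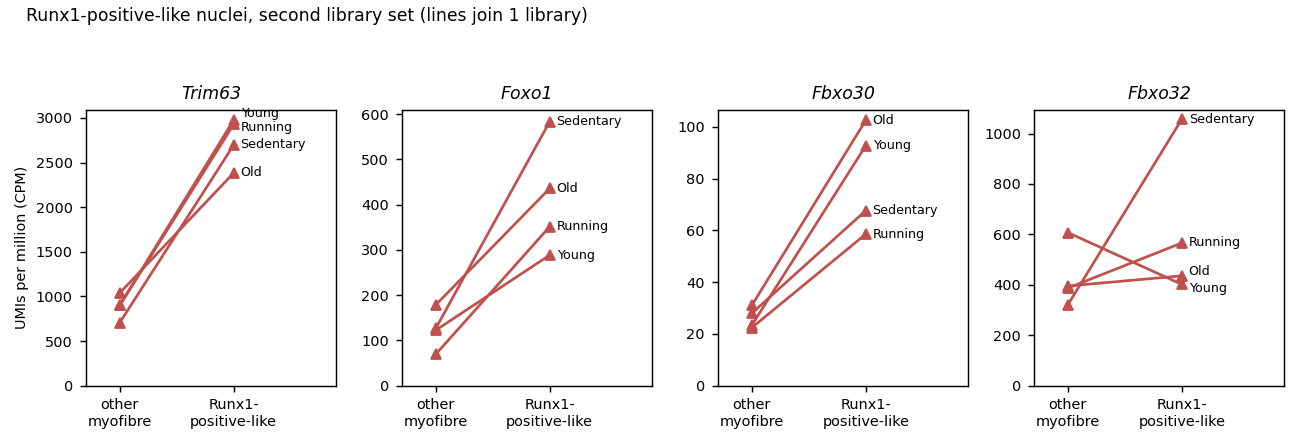
Levels of Trim63, Foxo1, Fbxo30 and Fbxo32 (CPM) in other myofibre nuclei and in the Runx1-positive cluster of the second library set, with a line joining the values of 1 library. Every Trim63, Foxo1 and Fbxo30 line rises, and the Young line for Fbxo32 falls.

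Age was tested next. Over all nuclei 0 of the 10 members differed between Old and Young by edgeR (background 0% of 20323 genes), none of them at an unadjusted p under 0.05, where 557 genes had one, and DESeq2 called 0 members as well. Members were at -0.66 to 0.61 on the log2 scale with SEs of 0.33 to 0.89 and a median of -0.20, against 0.19 over all genes and 0.61 over all genes with library totals. Trim63, Foxo1, Foxo3 and Cebpd changed sign with library totals (0.18, 0.22, 0.31 and 0.21), so no direction is given for the group. With 2 libraries in each group, the smallest two-sided p of an exact permutation test is 0.333.

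The Fbxo32 values of Old and Young lay in opposite orders in the library sets. Over all nuclei it was at 878 CPM in Old and 401 CPM in Young of the 10x set, and at 263 CPM in Old and 590 CPM in Young of the second set (-0.43, SE 0.61, adjusted p = 0.758). Without Old replicate 2 the value was 0.37 and without Young replicate 2 0.51. In myofibre nuclei Old and Young were at 1270 and 544 CPM in the 10x set and at 397 and 605 CPM in the second (0.04, SE 0.42, adjusted p = 0.996). The same pair of orders was found within each fibre type. Type IIb nuclei were at 1570 and 570 CPM in the 10x set and 427 and 662 CPM in the second, and type IIa/IIx nuclei at 488 and 323 CPM and at 462 and 680 CPM.

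Within the 10x set the higher Fbxo32 level of Old replicate 1 was found in every type IIb cluster with at least 20 nuclei of each of Old and Young replicate 1. Most Old type IIb nuclei (57.8%) lay in a cluster led by Ostn and Igfn1, where Old was at 1656 CPM and Young at 542 CPM, and the largest share of Young ones (48.0%) in a cluster led by Plcd4 and Myhas, where Old was at 1585 CPM and Young at 563 CPM. With 1 library a group in each set, this contrast has no replicate check.

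Trim63 was at 402 and 227 CPM in Old and Young of the 10x set and at 683 and 907 CPM in the second over all nuclei (-0.19, SE 0.46, adjusted p = 0.852). Within myofibre nuclei Old exceeded Young in both sets, at 580 against 309 CPM and 1092 against 927 CPM, and the groups overlapped (0.32, SE 0.29, adjusted p = 0.987). In type IIb nuclei Old and Young were at 672 and 318 CPM in the 10x set but 1198 and 1207 CPM in the second. Type IIa/IIx nuclei were at 308 and 217 CPM and at 1224 and 808 CPM. Foxo1, at 183 and 168 CPM in Old and 190 and 123.5 CPM in Young, and Foxo3, at 147 and 72.5 CPM against 150 and 47.5 CPM, overlapped too (adjusted p = 0.798 and 0.863). So did Fbxo30, at 25.4 and 20.6 CPM in Old against 25.1 and 24.5 CPM in Young (adjusted p = 0.694).

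Fkbp5 and Fbxo21 were the members whose Old and Young libraries did not overlap with Old higher, although neither passed the test. Fkbp5 was at 125 and 142 CPM in Old against 56.6 and 76.5 CPM in Young (0.61, SE 0.49, adjusted p = 0.693), and Fbxo21 at 17.7 and 19.2 CPM against 9.15 and 9.44 CPM (0.58, SE 0.44, adjusted p = 0.693). Shares of other cell types differed as well, though not always in the same direction. Fibro-adipogenic progenitors, the class with the highest Fkbp5 level, were 29.3% of nuclei in Old and 18.3% in Young of the 10x set, and adipocytes, the class with the highest Fbxo21 level, were 3.11% and 1.89%. In the second set progenitors were 0.0629% and 0.953% and adipocytes 4.36% and 0.0887%, with most Old nuclei unnamed. The part of these shares in the differences was not tested. Within progenitors of the 10x set Fkbp5 was at 365 CPM in Old and 190 CPM in Young, and within myofibre nuclei it was at 23.3 and 14.3 CPM in that set and at 116 and 73.7 CPM in the second. Fbxo21 was at 144.7 and 32.2 CPM in adipocytes of the 10x set (260 and 40 UMIs). In myofibre nuclei it was at 6.86 and 3.55 CPM in that set and, with Old lower, at 8.20 and 9.27 CPM in the second.

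Klf15 (40.2 and 15.5 CPM in Old against 31.6 and 27.1 CPM in Young), Ddit4 (2.04 and 3.83 against 1.22 and 7.64 CPM) and Cebpd (13.9 and 17.8 against 9.48 and 19.2 CPM) overlapped between the ages, with adjusted p-values of 0.726, 0.748 and 0.896. The Ddit4 values rested on 79 and 19 UMIs in Old and 48 and 68 in Young. In myofibre, type IIb and type IIa/IIx nuclei 0 members were called for age either (background 0% of 18682, 16049 and 12960 genes), while 569, 783 and 627 genes had an unadjusted p under 0.05 and DESeq2 called 0 members. Among the linked genes 0 passed the test for age over all nuclei in any of the 6 lists. The smallest p-values in them were those of Trim55 (-1.38), Hsd11b1 (1.45), Cebpa (2.31) and Lpin1 (-0.99), each with an adjusted p of 0.693.

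**Figure D5:**
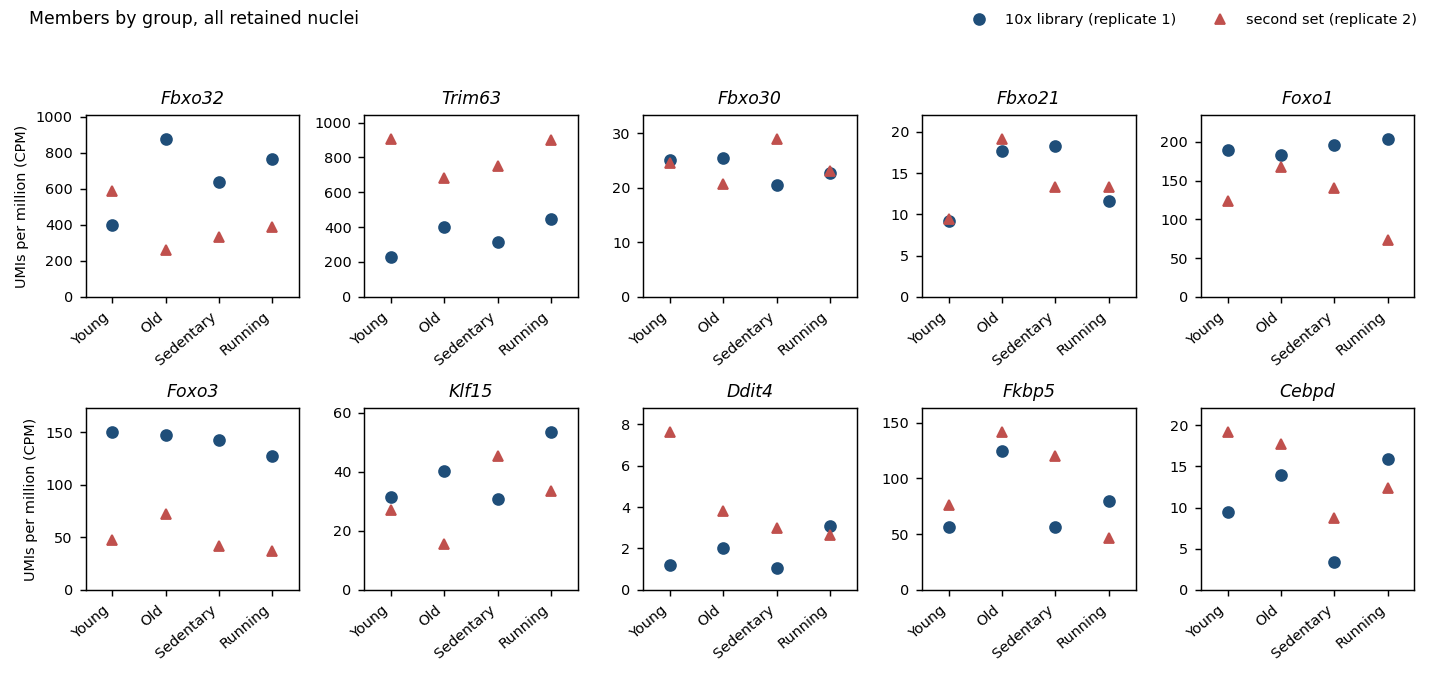
Level of each of the 10 genes (CPM over all retained nuclei) in the 4 groups, with a circle for the 10x library and a triangle for the library of the second set. Fbxo32 is higher in Old than in Young in the 10x set (878 against 401 CPM) and lower in the second (263 against 590 CPM).

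The comparison of Running with Sedentary mice asks whether treadmill exercise altered these genes. Over all nuclei 0 of 10 members were called (background 0% of 20323 genes), none at an unadjusted p under 0.05, where 98 genes had one, and DESeq2 called 0. The members had a median of -0.01 against -0.04 over all genes. Cebpd had the largest value, 1.38 (SE 0.61, adjusted p = 1). It was at 15.9 CPM in Running and 3.37 CPM in Sedentary of the 10x set (702 and 78 UMIs), and at 12.3 and 8.79 CPM in the second (88 and 41 UMIs). The Running and Sedentary libraries did not overlap, and Sedentary replicate 1 was the lowest of all 8 libraries.

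The Cebpd values within myofibres lay in the same direction. In myofibre nuclei Running and Sedentary were at 11.5 and 2.03 CPM in the 10x set and at 12.7 and 7.81 CPM in the second (1.72, SE 0.56, adjusted p = 1). In type IIb nuclei they were at 12.4 and 1.68 CPM (277 and 14 UMIs) and at 12.7 and 6.996 CPM (65 and 24 UMIs), with 1.89 (SE 0.62, adjusted p = 1). Type IIb nuclei of the 10x libraries lay in different clusters: 32.8% of those of Sedentary replicate 1 were in a cluster with 0.653 CPM of Cebpd that held too few Running nuclei to compare. In the 4 clusters with at least 20 nuclei of both, Running and Sedentary were at 14.7 and 3.19, 13.6 and 1.51, 11.6 and 9.39, and 10.7 and 2.68 CPM. The Sedentary cluster values each rest on a part of the 14 UMIs above, and that of 9.39 CPM on 87 nuclei. Cebpd was the only member with an unadjusted p under 0.05 in these classes, where 227 and 296 of the 18682 and 16049 genes tested had one and 0% were called, and it did not pass the correction. In type IIa/IIx nuclei it was at 8.16 and 2.40 CPM and at 9.37 and 8.36 CPM (1.13, SE 0.70, adjusted p = 1). Without Sedentary replicate 1 the value fell to 0.71 over all nuclei, 1.30 in myofibre and 1.30 in type IIb nuclei, and without Running replicate 1 to 0.78, 0.73 and 1.059.

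None of the ligases passed the test for running. Fbxo32 was at 764 and 386 CPM in Running against 638 and 333 CPM in Sedentary (0.26, SE 0.58), and Trim63 at 448 and 898 CPM against 317 and 750 CPM (0.40, SE 0.45). Both were higher in Running within each library set, by less than the difference between the sets. In myofibre nuclei Fbxo32 was at 941 and 388 CPM against 759 and 340 CPM (0.25, SE 0.41) and Trim63 at 553 and 914 CPM against 374 and 758 CPM (0.42, SE 0.29). Each of these 4 adjusted p-values was 1.

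Foxo1 was at 204 and 72.7 CPM in Running against 196 and 140 CPM in Sedentary (-0.40, SE 0.39), and Fkbp5 at 79.5 and 46.5 CPM against 56.8 and 120 CPM (-0.45, SE 0.51). In both genes the sets went in opposite directions, with the lower Running value in the second set. Fbxo21 (11.7 and 13.3 against 18.3 and 13.3 CPM, -0.30), Klf15 (53.6 and 33.6 against 30.9 and 45.5 CPM, 0.09) and Ddit4 (3.11 and 2.66 against 1.08 and 3.002 CPM, 0.83, SE 0.90) overlapped. So did Fbxo30 (22.7 and 23.1 against 20.4 and 28.9 CPM, -0.10) and Foxo3 (127 and 36.7 against 142 and 42.0 CPM, -0.16). Adjusted p-values were 1 throughout, and 0 linked genes were called in any of the 6 lists, whose medians lay between -0.02 and 0.17.

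Whether age or running acted differently in the fast fibre types was tested as an interaction. By edgeR 0 of 9 members were called in either test (background 0% of 12142 genes, with 417 genes for age and 142 for running at an unadjusted p under 0.05), and DESeq2 called 0 members. Fbxo30 alone had an unadjusted p under 0.05, for running (-0.78, SE 0.33, adjusted p = 1). It was at 17.9 and 22.3 CPM in Running and 19.8 and 29.4 CPM in Sedentary type IIb nuclei, and at 27.7 and 35.1 CPM against 19.96 and 23.4 CPM in type IIa/IIx nuclei. Running was thus lower in type IIb and higher in type IIa/IIx nuclei in both sets, a difference that did not pass the correction. In type IIa/IIx nuclei themselves, 0 members were called for running, with 336 genes at an unadjusted p under 0.05 and 1 gene, no member, called by DESeq2.

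Across 10 classes of the 4 10x libraries, the gene whose class means were most like those of each member was recorded as a description. The classes share their libraries and their depth, so these values carry no test. Fbxo32 was most like the muscle glycogen phosphorylase gene Pygm (Pearson r = 0.99) and Trim63 most like Rbfox1 (r = 0.99). Foxo1 was nearest to Ezh2 (0.99), Foxo3 to Orai2 (0.98), Fkbp5 to Capn5 (0.98), Fbxo21 to Mpp7 (0.97), Cebpd to Plau (0.97), Ddit4 to Trpm3 (0.97), Klf15 to Nedd4 (0.96) and Fbxo30 to Pxylp1 (0.93).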

How the data were processed

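Single-nucleus RNA-seq was deposited as 8 matrices of raw UMI counts, 1 per library, which the authors had made from their reads on the mm10 genome. The submitters' processing notes name Cell Ranger 6.1.2 and Seurat 4.1.1. The headers of the second library set name PISA, and its counting settings are not given in the sources used here. The study tested nuclei with a Wilcoxon rank sum test. Here nuclei were not treated as replicates, and UMIs were summed per library and class.

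Nuclei with 200 to 6000 genes and at most 6% mitochondrial UMIs were kept. Of 21207 symbols in all files, 21111 were used, without 12 mitochondrial and 84 ribosomal protein genes. Each library set was clustered on its own (scanpy 1.11.5, leidenalg 0.10.2, 2000 variable genes without the 10 members, 30 components, 20 neighbours, resolution 1.0). Clusters were named from marker lists, with naming limits set after the clusters were seen. Doublets were not called, and an alternative left out the 6% of nuclei with the most UMIs. Whether barcodes were shared within the second set was not counted.

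Sums over at least 20 nuclei were tested with edgeR 4.0.16 (quasi-likelihood, TMM, filterByExpr, R 4.3.3) with Benjamini-Hochberg adjustment over all genes at 0.05. Age and running were fitted over the 4 groups with the library set as a term, which left 3 residual degrees of freedom, and classes were compared within libraries. SEs were derived from the log2 fold change and its F value. DESeq2 1.42.0, other scalings, filters, cluster settings and left-out libraries were alternatives. The fitting code was tested on simulated counts.

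The members, the 6 lists of 94 linked genes and the tests were chosen with earlier results of these data known. The text names the members in every comparison, up to 3 genes of each list with the smallest p-values in a class comparison, the list genes with the smallest p-values for age, and the most similar gene of each member over classes with at least 20 nuclei in each 10x library. Gene coordinates are those of GENCODE vM21 on GRCm38. No deposited column of per-sample values was left unused.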

Additional observations from a re-analysis of the deposited data

How the results depend on the processing

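For age, running and both interactions 0 members were called in every setting run, including each library left out in turn (0 to 0), DESeq2, other scalings, no filter on low counts, other cluster settings and fits without the library set term. The count of members called was 2 between fibre types (2 to 3 with 1 library left out, 4 with library totals only, 1 in the second set alone) and 7 between myofibre and other nuclei (6 to 7 with 1 library left out, 3 in the second set alone). The labels carry no replicate numbers, so no libraries were paired by number, and the library set, which holds 1 library of each group, served as the block. The fit with no replicate block, meaning without the library set term, called 0 members for age and 0 for running over all nuclei, as before.

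The log2 values that changed sign were the following, and the cause was not tested. For age over all nuclei with 1 library left out, Fbxo32 lay between -1.45 and 0.51 and Trim63 between -0.85 and 0.33 (above 0 without Old or Young replicate 2), Klf15 between -1.58 and 0.21 (above 0 without Old replicate 2), Ddit4 between -1.53 and 0.42 (above 0 without Young replicate 2) and Cebpd between -0.66 and 0.19 (above 0 without Old or Young replicate 2). Without Old replicate 2 and Sedentary replicate 1 together Fbxo32 was at 0.50, Trim63 at 0.35 and Klf15 at 0.030. With library totals only Trim63, Foxo1, Foxo3 and Cebpd were at 0.18, 0.22, 0.31 and 0.21, and in named clusters Trim63, Foxo1 and Cebpd at 0.19, 0.036 and 0.16. For running over all nuclei with 1 library left out, Fbxo30 lay between -0.53 and 0.43 (above 0 without Sedentary replicate 2), Foxo1 between -0.90 and 0.023 (above 0 without Running replicate 2), Klf15 between -0.61 and 1.04 (below 0 without Running or Sedentary replicate 1), Ddit4 between -0.19 and 1.56 (below 0 without Running replicate 1) and Fkbp5 between -1.13 and 0.36 (above 0 without Running or Sedentary replicate 2). Fbxo30 was at 0.024 with only the 4 libraries compared, and Klf15 at -0.39 without Old replicate 2 and Sedentary replicate 1. For age in myofibre nuclei, Fbxo32 was at -0.0002 with DESeq2 size factors, at -0.0009 by DESeq2, and between -0.58 and 0.75 with 1 library left out (below 0 without Old or Young replicate 1). Between fibre types, Fbxo32 was at -0.29 in the second set, Foxo3 at 0.081 with no filter and 0.0067 in the second set, Klf15 at 0.040 with no filter and 0.0068 in the 10x set, and Fkbp5 at -0.079 in the 10x set. Between myofibre and other nuclei, Fbxo30 was at -0.28 with library totals, Foxo1 at 0.066 with no filter, and Foxo3 at 0.15 with no filter and between -0.10 and 0.0082 with 1 library left out (above 0 without Sedentary replicate 2).

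Shares of 10x nuclei with a UMI rose with depth, by construction: at 1000 UMIs and without thinning, Fbxo32 was in 51.6% and 75.1% of type IIb and 15.7% and 21.8% of endothelial nuclei, Trim63 in 35.5% and 66.3% of type IIb nuclei (15.4% of endothelial nuclei without thinning), and Fkbp5 in 24.4% and 38.6% of fibro-adipogenic progenitors and 2.10% and 6.48% of type IIb nuclei.

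Over all genes, counts for age and running were 0 by edgeR in the fits given and moved when libraries were left out. Without Sedentary replicate 2, 419 genes were called for running over all nuclei, 51 in type IIb and 88 in type IIa/IIx nuclei, and 4 and 43 for age over all and type IIa/IIx nuclei. Without Sedentary replicate 1, 8 were called for age over all nuclei, and without Old replicate 2 and Sedentary replicate 1, 178 for age (120 in myofibre nuclei) and 15 for running. With only the 4 libraries compared, 81 were called for running and 4 for age over all nuclei, and 90 for age in type IIb nuclei. With no filter, 66 and 43 were called for age and running in type IIa/IIx nuclei and 46 in the age interaction. DESeq2 called 3 for age in myofibre, 3 in type IIb and 20 in type IIa/IIx nuclei. In the second set alone, 1533 genes in place of 3822 were called between fibre types and 1469 in place of 8990 between myofibre and other nuclei. The alternative that kept all deposited nuclei was run for sums over all nuclei only.

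With 2 libraries a group, SEs of members for age and running ran from 0.33 to 0.90 on the log2 scale over all nuclei. The parts of depth and of replicate number in them were not tested.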

Other observations

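Slow myofibre nuclei were part of the myofibre sums and were not compared as a class of their own, because 2 of the 8 libraries held fewer than 20 of them (147, 1, 7 and 387 nuclei in Old, Young, Running and Sedentary replicate 1, and 48, 349, 98 and 70 in replicate 2). Fbxo32 was at 577 CPM in Old and 567 CPM in Sedentary replicate 1, and at 435, 545, 426 and 477 CPM in Old, Young, Running and Sedentary replicate 2. Trim63 was at 189 and 190 CPM in Old and Sedentary replicate 1, and at 539, 563, 626 and 477 CPM in the second set. Both genes were thus read in the slow class of every library with at least 20 of its nuclei. The Trim63 values of the library sets did not overlap. Nor did they in all myofibre nuclei, at 309 to 580 CPM in the 10x set and 758 to 1092 CPM in the second. In type IIb nuclei they were at 318 to 672 and 701 to 1207 CPM, so the gap was not particular to the slow class. Its cause was not tested. The slow clusters of the sets were also unlike. That of the second set held Myh4 at 8729 CPM and Myh7, the slow heavy chain gene, at 4226 CPM. In the 10x set they were at 501 and 5612 CPM. Second-set values therefore cannot be read as levels of slow fibres alone.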
